A study of Homo sapiens with 6 samples.

Results

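Mutually exclusive exons are pairs of neighbouring exons of which a transcript holds 1 and skips the other. In the best-known pairs the exons arose as copies of each other, have the same length and code for alternative versions of the same stretch of protein, so that the reading frame is kept whichever exon is used. Pyruvate kinase M (PKM), the last enzyme of glycolysis, is the standard example in cancer: 1 exon of its pair gives PKM1, the form of differentiated tissues such as muscle and brain, and the other gives PKM2, the form of proliferating cells. SAM68, the product of KHDRBS1, is an RNA-binding protein of the STAR family that takes part in the choice of exons.

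The pairs described here are those rows of the table of mutually exclusive exons (MXE) whose exons differed in length by at most 3 nt and whose junction reads averaged at least 10 over 6 libraries. Of 9711 rows, 553 had exons of similar length; 74 of these fell under the minimum of reads, and 479 events remained. They came from 425 pairs of exons in 383 genes, since 50 pairs were listed with more than 1 set of flanking exons and such events share reads. The 3 events just under the minimum, in DNM1, SRP54-AS1 and TMEM241, averaged 9.67, 9.83 and 9.83 reads, and the 3 just above it, of NBPF8, EXOC6B and NBPF8 again, averaged 10, 10.2 and 10.2. All 9711 rows were held to the same minimum, and 8791 events entered the tests, 8312 of them with exons of unequal length.

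RNA was taken from NCI-H1975, a human lung adenocarcinoma cell line, 48 h after transfection by lipofectamine 2000 of 2 µg per well of PCDNA3.1-SAM68 plasmid or of the empty PCDNA3.1 plasmid. There were 3 control and 3 SAM68 libraries, and each library held 209956 to 247361 reads of the similar-length pairs. Both groups are transient transfections of 1 line, so the values average over cells that took up the plasmid and cells that did not. The study gives the libraries as biological replicates but does not say how the cultures were separated. KHDRBS1, the transfected gene, had 102 ± 2.76 (SD, n = 3) reads per 1000000 exon-skipping junction reads in controls and 403 ± 7.16 with SAM68, 3.95-fold more, and the groups did not overlap (two-sided exact permutation p = 0.1, the smallest that 3 against 3 libraries allow). Of the markers of an epithelial line, KRT8 and CD44 had values, as did CD68 of the markers of other cells; the other markers were not analysed here. On the same scale KRT8 was at 166 in the control library first in its list, 80.9 and 75.9 in the other controls and 73.6 to 79.7 with SAM68, so that 1 control library stood apart. CD44 lay between 124 and 142 and CD68 between 29.4 and 33.3 in all libraries, and the groups overlapped.

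Throughout, exon A is the exon of a pair nearer the 5′ end of the gene and exon B the one nearer the 3′ end. PSI is the share of exon A: the junction reads of exon A divided by their effective length, as a percentage of the same quantity for both exons. A difference in PSI is SAM68 less control, in points of percent, with its 95% interval from a quasi-binomial model fitted to all 8791 events.

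The sequences of the pairs on which the results turn were read from the GRCh38 genome on the transcript strand, 5′ to 3′. They are shown so that the likeness of the exons of a pair can be seen: bases in capitals differ from, or face a gap in, the other exon of the pair after global alignment. The pair of PKM lies on the minus strand at chr15:72203022-72203188 (exon A, the exon of PKM1, number 10 of 12 in transcript PKM-214) and chr15:72202454-72202620 (exon B, the exon of PKM2, number 9 of 11 in PKM-202). Both exons are coding and 167 nt long, 401 nt of intron lie between them, and 67.6% of the aligned positions are identical.
PKM exon A: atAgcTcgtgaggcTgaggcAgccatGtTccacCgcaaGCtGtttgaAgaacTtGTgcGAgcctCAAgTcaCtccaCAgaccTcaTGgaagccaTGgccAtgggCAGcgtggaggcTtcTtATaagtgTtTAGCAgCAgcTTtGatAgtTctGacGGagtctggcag
PKM exon B: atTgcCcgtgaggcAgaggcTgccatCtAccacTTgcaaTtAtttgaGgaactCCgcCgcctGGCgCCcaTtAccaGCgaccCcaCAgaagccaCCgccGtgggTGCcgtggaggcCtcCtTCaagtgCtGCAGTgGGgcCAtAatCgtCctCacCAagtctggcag

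The pairs of ACTN4 (α-actinin 4, which crosslinks actin filaments), RAB6A (a small GTPase of Golgi traffic) and SLC25A3 (the mitochondrial phosphate carrier) are of the same kind. The exons of ACTN4 lie on the plus strand at chr19:38710257-38710342 and chr19:38711276-38711361, those of RAB6A on the minus strand at chr11:73718785-73718890 and chr11:73718613-73718718, and those of SLC25A3 on the plus strand at chr12:98595433-98595557 and chr12:98595727-98595848. All 6 are coding. The exons of ACTN4 shared 75.6% of positions, those of RAB6A 70.8% and those of SLC25A3, which differ in length by 3 nt, 64.8%.
ACTN4 exon A: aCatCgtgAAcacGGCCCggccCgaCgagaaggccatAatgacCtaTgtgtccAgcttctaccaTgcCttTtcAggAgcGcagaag
ACTN4 exon B: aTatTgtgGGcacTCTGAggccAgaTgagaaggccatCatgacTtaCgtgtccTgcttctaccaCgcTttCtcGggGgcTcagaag
RAB6A exon A: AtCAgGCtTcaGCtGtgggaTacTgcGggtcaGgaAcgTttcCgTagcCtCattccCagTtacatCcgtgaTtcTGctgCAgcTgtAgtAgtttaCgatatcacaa
RAB6A exon B: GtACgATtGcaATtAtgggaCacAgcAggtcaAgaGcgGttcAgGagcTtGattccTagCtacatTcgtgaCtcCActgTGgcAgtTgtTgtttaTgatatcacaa
SLC25A3 exon A: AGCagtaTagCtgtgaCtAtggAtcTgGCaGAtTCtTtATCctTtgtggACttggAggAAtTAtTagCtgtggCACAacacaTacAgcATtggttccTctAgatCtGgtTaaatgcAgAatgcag
SLC25A3 exon B: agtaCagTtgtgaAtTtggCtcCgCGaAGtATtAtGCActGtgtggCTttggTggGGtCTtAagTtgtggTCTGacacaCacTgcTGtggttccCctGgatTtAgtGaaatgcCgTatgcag

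In some gene families an exon was closer to its counterpart in a paralog than to its own partner. MAPK8 and MAPK9, which code for the stress kinases JNK1 and JNK2, each have a pair of 72 nt exons, at chr10:48424088-48424159 and chr10:48424514-48424585 (plus strand) and at chr5:180247855-180247926 and chr5:180247439-180247510 (minus strand). Exon A of MAPK8 shared 79.2% of positions with exon A of MAPK9 and 61.1% with its own partner, and the exons B of the 2 genes shared 77.8%. The 76 nt pairs of the tropomyosins, which lie along the actin filament, showed the same order for exon B: it shared 77.6% between TPM1 and TPM2, 76.3% between TPM1 and TPM3 and 78.9% between TPM2 and TPM3, against 52.6% to 61.5% between the partners within a gene. The order was the other way between MAPK8 and MAPK14, where exons A shared 44.05% and exons B 46.4%, and for exon A of TMEM87A and TMEM87B, which shared 48.0% against 50% within each gene, while their exons B shared 69.9%. These exons lie at chr15:63061198-63061273 and chr15:63061713-63061788 (TPM1, plus strand), chr9:35685064-35685139 and chr9:35684732-35684807 (TPM2, minus strand) and chr1:154172029-154172104 and chr1:154171413-154171488 (TPM3, minus strand).
MAPK8 exon A: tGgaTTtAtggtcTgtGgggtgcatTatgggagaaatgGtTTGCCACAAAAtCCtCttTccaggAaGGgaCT
MAPK8 exon B: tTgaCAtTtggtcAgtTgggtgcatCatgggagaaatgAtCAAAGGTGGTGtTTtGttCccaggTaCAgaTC
MAPK9 exon A: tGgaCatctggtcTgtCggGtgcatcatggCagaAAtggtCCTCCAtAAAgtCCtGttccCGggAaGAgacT
MAPK9 exon B: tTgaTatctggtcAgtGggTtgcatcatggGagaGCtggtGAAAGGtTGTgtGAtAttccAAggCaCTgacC
TPM1 exon A: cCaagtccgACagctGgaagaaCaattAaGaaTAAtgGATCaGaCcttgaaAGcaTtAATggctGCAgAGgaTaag
TPM1 exon B: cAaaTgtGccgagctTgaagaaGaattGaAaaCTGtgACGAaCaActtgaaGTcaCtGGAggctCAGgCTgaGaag
TPM2 exon A: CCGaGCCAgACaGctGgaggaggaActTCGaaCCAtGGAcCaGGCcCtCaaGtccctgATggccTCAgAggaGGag
TPM2 exon B: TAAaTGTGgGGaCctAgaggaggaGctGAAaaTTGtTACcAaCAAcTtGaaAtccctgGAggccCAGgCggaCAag
TPM3 exon A: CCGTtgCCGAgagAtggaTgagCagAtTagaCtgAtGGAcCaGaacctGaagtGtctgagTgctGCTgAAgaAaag
TPM3 exon B: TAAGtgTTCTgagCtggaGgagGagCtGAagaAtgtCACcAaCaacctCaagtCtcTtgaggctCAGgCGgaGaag

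The last set holds the pairs of 2 splicing factors. U2AF1, the subunit of U2AF that reads the AG at the 3′ splice site, has exons of 67 nt at chr21:43101366-43101432 and chr21:43100453-43100519 on the minus strand, with 65.7% identity. HNRNPM, an hnRNP protein that binds pre-mRNA, has exons of 39 and 36 nt at chr19:8465324-8465362 and chr19:8465480-8465515 on the plus strand, with 47.6% identity. The pair of HNRNPM is of a different kind: annotated transcripts hold both exons, one after the other.
U2AF1 exon A: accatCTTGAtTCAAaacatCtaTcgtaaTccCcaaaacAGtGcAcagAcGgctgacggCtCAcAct
U2AF1 exon B: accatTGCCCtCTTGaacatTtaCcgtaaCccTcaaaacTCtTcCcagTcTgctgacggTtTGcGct
HNRNPM exon A: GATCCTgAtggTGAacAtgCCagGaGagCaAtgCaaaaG
HNRNPM exon B: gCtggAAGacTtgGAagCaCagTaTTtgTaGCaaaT

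Similar length was a mixed property. Among the 425 pairs, 113 had exons of equal length and 90, 99 and 123 had exons that differed by 1, 2 and 3 nt. Pairs that differed by 4 to 10 nt numbered 78 to 120 at each difference; each difference above 0 counts pairs with the longer exon on either side. A swap of exons that differ by 0 or 3 nt keeps the reading frame, as 236 pairs did (55.5%), a share that the limit on the length difference partly sets. Both exons were coding in 388 pairs. An AG stood before both exons in 425 of the 425 pairs, and a GT or GC after both in 423. Exon A had a median length of 99 nt (range 30 to 234), and the exons lay a median of 2745 nt apart, against 3069.5 nt in pairs of unequal length.

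The 2 exons of a pair shared a median of 47.7% of aligned positions, and 40.6% in pairs of unequal length, which the alignment penalises for the gap. At least 60% were shared in 48 pairs (11.3%), against 11 pairs of unequal length (0.150%). Of these 48, 41 had exons of equal length and 26 had an annotated swap of 1 exon for the other; another 13 belonged to NBPF genes, a primate family built of repeated exon blocks. Of the 10 pairs with at least 95% identity, 9 were NBPF pairs.

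**Figure D1:**
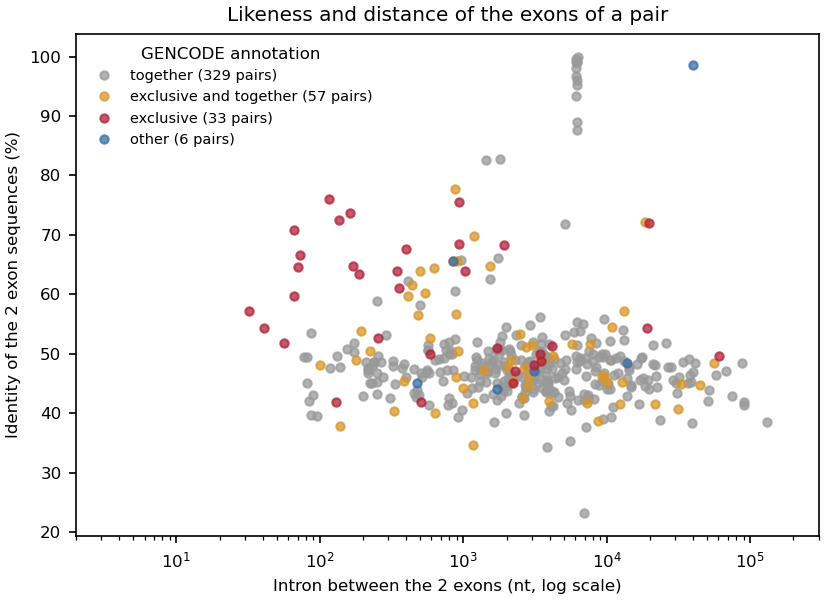
Identity of the exons of each of 425 pairs (y axis, % of aligned positions) against the length of the intron between them (x axis, nt, log scale), coloured by GENCODE annotation: a swap and no transcript with both exons (exclusive), a swap and transcripts with both (exclusive and together), or transcripts with both and no swap (together). Most pairs lie near the median of 47.7%; the exclusive pairs reach 60% to 80% at short distances, and a column of NBPF pairs stands near 100% at about the same distance.

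Annotation divided the pairs. In GENCODE an annotated swap means that 1 transcript holds exon A alone and another exon B alone between the same flanking exons. Of the pairs, 33 (7.76%) were exclusive, with an annotated swap and no transcript that holds both exons; 57 (13.4%) had a swap and transcripts with both; and 329 (77.4%), termed together here, had transcripts with both and no such swap, though other transcripts may hold either exon alone. The remaining 6 had neither. Among pairs of unequal length the shares were 3.58%, 11.9% and 82.1%. The canonical transcript held both exons in 321 pairs (75.5%, against 78.2% of the pairs of unequal length). Of the 33 exclusive pairs, 23 had exons of equal length, 30 kept the frame, 29 had 2 coding exons, their median identity was 59.8% and their exons lay a median of 401 nt apart.

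The classes differed in their median junction reads, with wide overlap between those with both exons in 1 transcript. Reads that join exon A directly to exon B are not part of an MXE row, but could be estimated from exon-skipping rows for 309 pairs. They are given here as a percentage of themselves plus 0.5 times the MXE reads, a scale on which 0% means never joined and about 50% means that every transcript holds both. The median over the 309 pairs was 51.4%, and 46 lay under 10%. Among 265 pairs annotated together the median was 52.1% (range 0.245% to 95.9%), and among 36 with a swap and transcripts with both it was 40.1% (0.106% to 76.3%). Among exclusive pairs, 22 of 33 had no row that lists the 2 exons as neighbours, and the 6 with an estimate lay between 0.0595% and 4.38% (median 1.51%).

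A second measure used only reads that pass over the other exon (A to the exon after the pair, and the exon before the pair to B). In a true swap these make up about 50% of the MXE reads, and where both exons are always spliced in sequence they are near 0. They were under 1% of the MXE reads in 116 of the 309 pairs (37.5%, against 41.0% of pairs of unequal length) and under 5% in 213 (68.9%, against 75.4%). At least 40% was reached by 34 pairs, of which 18 had exons of equal length, with a median identity of 55.2%. The exclusive pairs with an estimate lay between 43.0% and 64.3%, the pairs annotated together at a median of 1.47% (range 0.00211% to 72.1%), and the pairs with a swap and transcripts with both at a median of 30.3% (0.0774% to 88.7%). For the 116 pairs under 1%, PSI compares reads that enter exon A with reads that leave exon B, in transcripts that hold both. Their PSI had a median of 48.3% (middle 50% of pairs from 41.9% to 56.9%). The quasi-binomial test below called 0 of these 116 pairs. It called 0.239% of all tested events, so few that 0 among 116 is no result about joined pairs.

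**Figure D2:**
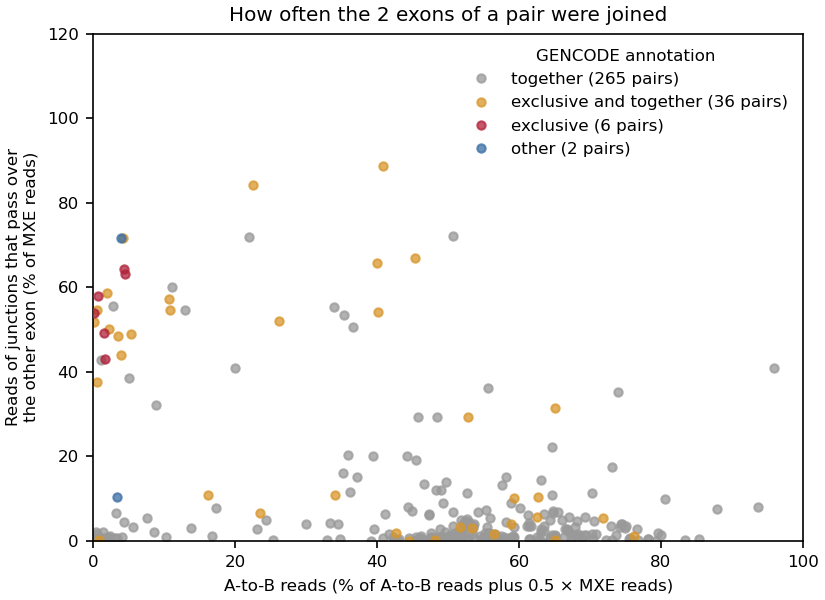
Each point is 1 of 309 pairs. The x axis gives the reads from A to B as a percentage of these plus 0.5 times the MXE reads, and the y axis the reads of junctions that pass over the other exon as a percentage of the MXE reads. Exclusive pairs stand at the upper left (x under 4.38%, y from 43.0%); most pairs annotated together lie along the lower edge around x = 52.1%.

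The question of the comparison was which pairs changed their balance when SAM68 was raised. Calls needed a difference of at least 10 points and an adjusted p (Benjamini-Hochberg over all 8791 events) under 0.05. The calls took in 3 of the 479 events (0.626%), in PKM, HNRNPM and U2AF1, all with less of exon A with SAM68. Over all tested events 21 were called (0.239%), and 18 of the 8312 of unequal length (0.217%). At any size of difference, 5 of the 479 had an adjusted p under 0.05 (1.04%, background 1.14%), the other 2 being RPL19 and SNF8. The groups did not overlap in 62 events (12.9%, background 12%). Across the 425 pairs the median size of the difference was 3.14 points, against 2.80 in pairs of unequal length.

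The call of PKM was made under each model of the spread between libraries and those of HNRNPM and U2AF1 were not. When the larger of an event's own and the shared dispersion was used, or each event's own, or limma on logit-transformed PSI, 1 of the 479 events was called, PKM, and 3, 1 and 1 of all tested events. The quasi-binomial fit gave every event 1 shared dispersion of 2.53, so an event whose libraries disagree far more than most is tested against a spread smaller than its own.

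**Figure D3:**
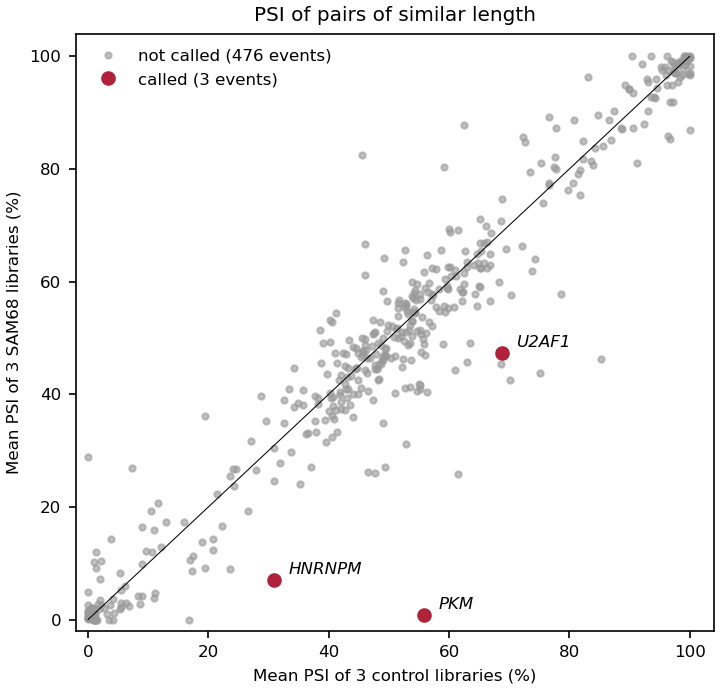
Mean PSI of the 3 SAM68 libraries (y axis, %) against that of the 3 control libraries (x axis, %) for 479 events; the line marks equal values and the 3 called events are named. PKM lies at 55.9% and 0.731%, far under the line; most events away from the line are not called, and 15 of the 18 pairs that differ by at least 20 points average fewer than 50 reads.

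In PKM the PKM1 exon fell from a little over one read in 2 to under 1 in 100. PSI was 56.2%, 55.6% and 55.9% in controls and 0.66%, 0.73% and 0.80% with SAM68. The groups lay far apart, and within each group the libraries lay within 1 point of each other. The means were 55.9% ± 0.317 and 0.731% ± 0.0704 (SD, n = 3 each), a difference of -55.2 points (95% interval -55.7 to -54.6). The adjusted p of the quasi-binomial test was below the smallest number that the computation holds; it was 2.17e-05 with the event's own dispersion and 0.000376 with limma on logit-transformed PSI. The exact permutation test gave 0.1, the smallest it can give. These values rested on 28133 to 40242 reads per library.

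The swap could be read separately on either side of the pair. Of the reads that enter the pair from the exon before it, 56.0%, 55.6% and 56.1% went to the PKM1 exon in controls and 0.665%, 0.708% and 0.771% with SAM68. Of the reads that leave the pair for the exon after it, 56.5%, 55.6% and 55.5% came from the PKM1 exon in controls and 0.661%, 0.749% and 0.856% with SAM68. Both junctions of each exon therefore gave the same share within about 1 point in every library. Reads that skip both exons numbered 0, 4 and 6 in controls and 9, 7 and 1 with SAM68.

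Scaled by depth, the fall of one exon was met by a rise of the other. The PKM1 exon had 3649 reads per 1000000 MXE reads in controls and 61.7 with SAM68, and the PKM2 exon 2880 and 8383. The 2 forms together rose by 0.37 on the log2 scale (limma, adjusted p = 3.46e-10), under the 2-fold limit of a call. PKM alone supplied 12.8% to 13.0% of all reads of similar-length pairs in controls and 15.7% to 16.3% with SAM68.

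**Figure D4:**
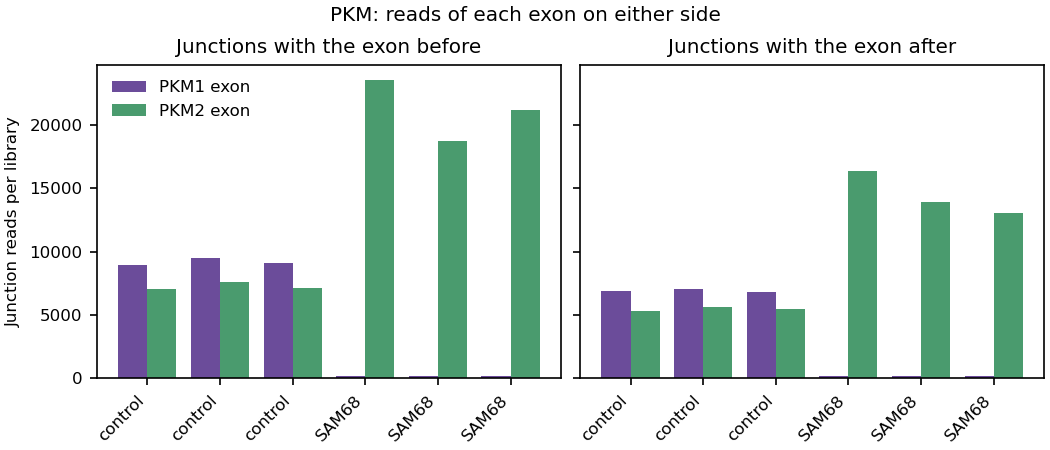
Junction reads of the PKM1 exon and the PKM2 exon in each library (y axis, reads per library, not scaled), for junctions with the exon before the pair (left) and with the exon after it (right). In the control libraries the PKM1 exon has slightly more reads than the PKM2 exon on both sides; with SAM68 it has under 1% of them on both sides.

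The other pairs annotated as exclusive gave a scale for PKM. With at least 50 reads on average there were 25 such pairs, and the 24 other than PKM differed by -5.99 to 6.29 points, with a median size of 1.67. With 1 library left out, GALNT7, the lowest, ran from -13.1 to -1.22 points and P4HA1, at 5.66, from -0.14 to 14.0, neither called; the highest of the 24 was not run this way. For 18 of the 24 the 95% interval lay within 10 points of 0 on either side. The groups did not overlap in 2 of the 24 pairs, ACP1 and ACTN4, while they did not overlap in 12% of all tested events. The PSI of the exclusive pairs nonetheless covered the whole range. Counting PKM, the mean of 6 libraries lay under 5% in 4 pairs, from 5% to 20% in 2 and from 20% to 80% in 11. It lay from 80% to 95% in 1 and above 95% in 7.

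Among the metabolic pairs, SLC25A3 used exon B almost alone. Its PSI was 0.14%, 0.17% and 0.20% in controls and 0.36%, 0.19% and 0.36% with SAM68, on 4660 to 6021 reads (difference 0.14 points, interval -0.03 to 0.30, adjusted p = 0.751). The groups overlapped and every library stayed under 1%. P4HA1, a subunit of the prolyl hydroxylase that matures collagen, used both exons, at 24.4%, 17.9% and 46.3% in controls and 39.5%, 30.9% and 35.2% with SAM68. The 3 control libraries differed among themselves by more than the groups did, on 68 to 95 reads. PKM was called and SLC25A3 and P4HA1 were not.

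Of the kinases with a textbook pair, MAPK8, MAPK9 and MAPK14 were not called, and neither was CAMK2D, a kinase chosen after its values were seen. MAPK9 used exon B almost alone: its PSI was 2.03%, 1.16% and 0% in controls and 0.43%, 0% and 0% with SAM68, where 0 reads allow a share of up to 1.66%. MAPK8, its paralog, kept a little more of exon A, with 1.16%, 4.94% and 9.91% against 5.95%, 13.2% and 5.81%, on 76 to 111 reads. The groups overlapped in both genes. MAPK14, which codes for p38α, used mostly exon A, with 71.7%, 81.2% and 76.8% against 73.6%, 74.0% and 84.0%. CAMK2D, a calcium-dependent kinase, had exon A alone in 5 of 6 libraries, where 0 reads of exon B allow up to 5.66%, and 95.1% in the other. The differences of these 4 genes stayed within 3 points over all libraries. With 1 library left out, that of MAPK8 ran from 0.55 to 5.26 and that of MAPK14 from -2.74 to 3.00, so its direction changed.

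The cytoskeletal pairs, of α-actinin and the tropomyosins, stood at different points of the PSI scale. ACTN4 had 98.3%, 98.2% and 98.2% in controls and 99.1%, 98.7% and 98.7% with SAM68, on 3581 to 4240 reads. The groups did not overlap, yet the difference was 0.65 points (interval 0.16 to 1.14) with an adjusted p of 0.283. TPM2 gave 24.5%, 24.7% and 23.3% against 23.7%, 23.9% and 23.6%, a difference of -0.44 points (interval -2.63 to 1.76). The 6 libraries of TPM2 lay within 2 points of each other. The paralogs stood elsewhere with the matching 76 nt pair: TPM1 had a mean of 97.4% in the control and 98.4% with SAM68, and TPM3 99.8% in both. The second pair of TPM1, of 126 nt, used exon B, with means of 0.975% and 1.29%. The pairs of ACTN4, TPM1, TPM2 and TPM3 were not called.

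The ACTN4 and TPM2 pairs also showed how rare the joined form was. Over the 6 libraries ACTN4 had 7 estimated reads from exon A to exon B, against 12420 from exon A to the exon after the pair and 252 from the exon before the pair to exon B. TPM2 had an estimated 50.5 reads from A to B.

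Among the pairs of membrane traffic, RAB6A used both exons in each library. Its PSI was 67.3%, 57.7% and 64.0% in controls and 62.7%, 54.2% and 73.5% with SAM68, on 249 to 358 reads, and the groups overlapped (difference 0.45 points, interval -6.50 to 7.40). DNM2, a dynamin that pinches off vesicles, gave 63.7%, 68.0% and 65.8% against 64.9%, 61.4% and 63.9%, a difference of -2.48 points (interval -7.27 to 2.31). CALU, a calcium-binding protein of the secretory pathway, lay between 74.3% and 81.6% in all libraries (difference 2.20 points, interval -1.92 to 6.32). The groups overlapped in both. SNAP25, known as the exon-swap gene of the nerve terminal, was covered by 15 to 36 reads only, with 83.3% to 100% of exon A; where exon B had 0 reads, its share could be up to 20%.

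Further exclusive pairs were not called either. ACP1, a phosphotyrosine phosphatase of low molecular weight, gave 80.7%, 83.4% and 81.5% against 78.75%, 79.98% and 80.55%; its groups did not overlap, by a margin of 0.1 points, and the difference was -2.09 points (interval -5.20 to 1.03, adjusted p = 0.817). MEF2D, a transcription factor of muscle genes, had exon A alone in 5 libraries and 99.3% in the other, and 0 reads of exon B allow up to 1.55%. GALNT7, an enzyme of O-linked glycans, differed by -5.99 points on 44 to 64 reads, with an interval of -23.3 to 11.3. KIFC3, a kinesin whose pair averaged fewer than 50 reads, gave 53.6%, 37.2% and 47.4% against 81.8%, 71.0% and 46.9%, a difference of 20.6 points (interval 0.38 to 40.7, 12.9 to 30.4 with 1 library left out) with an adjusted p of 0.663; its groups overlapped. SCN9A, a sodium channel of sensory neurons whose exons share 76.1% of positions, had 8 to 23 reads per library, which fixed its PSI no closer than an interval of -28.8 to 25.8 points for the difference.

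**Figure D5:**
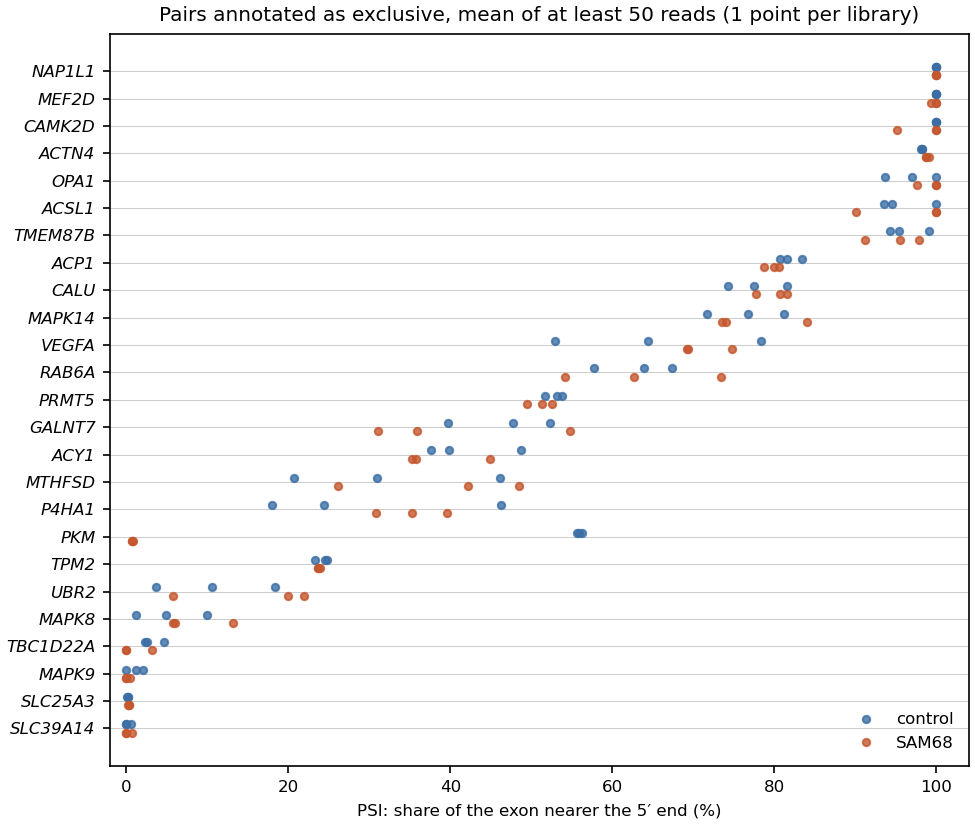
PSI (x axis, %) of 25 exclusive pairs with at least 50 reads on average, 1 point per library, ordered by their mean (y axis, genes). The 2 groups of points overlap or nearly touch in 24 pairs and stand about 55.2 points apart in PKM.

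In HNRNPM, called with the shared dispersion, the 2 exons were mostly joined. PSI was 40.1%, 22.7% and 29.8% in controls and 20.1%, 0.54% and 0.55% with SAM68, with the first SAM68 value just under the lowest control value. The difference was -23.8 points (interval -29.7 to -17.9, adjusted p = 6.09e-10 with the shared dispersion, 0.654 with the larger of shared and own, 0.827 with limma on the logit). Exon A was joined to exon B by an estimated 576, 527 and 509 reads in controls and 568, 430 and 474 with SAM68, 80.02% on the scale above. Reads from the exon before the pair to exon A numbered 148, 53 and 92 against 52, 1 and 1, and reads from exon B to the exon after 216, 183 and 206 against 207, 181 and 179. The value that moved was thus the entry into exon A from this upstream exon, and the reads between the 2 exons and out of exon B overlapped between the groups. Reads that pass over an exon of the pair were 7 or fewer per junction and library. Leaving out any 1 library gave -30.3 to -19.2 points, called in 6 of 6.

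U2AF1 could not be separated from its copy. Its reads numbered 506, 127 and 9 in controls and 1318, 2 and 1 with SAM68, and its PSI was 97.6%, 97.6% and 11.1% against 41.8%, 100% and 0%. The libraries of a group disagreed by nearly the whole scale, so the difference of -21.5 points (interval -26.3 to -16.7, adjusted p = 2.24e-54 with the shared dispersion) was set by few libraries. The adjusted p was 0.0709 with the larger dispersion, 0.879 with limma on the logit, and 0.916 with the shared dispersion when the SAM68 library with 1318 reads was left out. Without the SAM68 library at place 3 of its list the difference was 2.11 points, and it was -50.4 points without the control library at place 3. The exons of U2AF1L5, at chr21:6493044-6493110 and chr21:6492131-6492197 (minus strand), are 100% identical to those of U2AF1. They had 44, 22 and 44 reads in controls and 21, 1811 and 1912 with SAM68, high in the 2 libraries where U2AF1 was at 2 and 1. With the reads of both genes summed, PSI was 89.8%, 87.2% and 22.6% against 41.2%, 10.1% and 23.6%, a difference of -41.6 points (adjusted p = 3.5e-90 with the shared dispersion). The groups overlapped and the exact permutation p was 0.3. U2AF1L5 itself was not called for PSI.

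The other 2 events past the adjusted p alone differed by less than 10 points. RPL19, a protein of the large ribosomal subunit, gave 53.8%, 56.7% and 57.0% in controls and 61.0%, 61.6% and 62.5% with SAM68, a difference of 5.89 points (interval 4.89 to 6.88, adjusted p = 5.47e-27 with the shared dispersion, 0.000245 with the larger of shared and own, 0.895 with its own and 0.827 with limma on the logit). The groups did not overlap. Its exons came together: over the 6 libraries only 1 read passed from exon A to the exon after the pair and 1 from the exon before it to exon B, so that PSI compared 7958, 9009 and 8792 reads into exon A with 6784, 6833 and 6592 out of exon B in the control libraries, and 10946, 9309 and 9873 with 6951, 5765 and 5869 with SAM68. SNF8, a subunit of the ESCRT-II complex that sorts membrane proteins, gave 56.7%, 53.5% and 58.1% against 46.8%, 49.6% and 44.5%, a difference of -9.10 points (interval -12.2 to -6.03, adjusted p = 2.35e-06 with the shared dispersion, 0.0058 with the larger, 0.895 with its own and 0.827 with limma on the logit). Without the control or the SAM68 library at place 2 of its list the difference was -10.4 points and passed the limit of a call. Its groups did not overlap, and its exons are 7577 nt apart, with an annotated swap and transcripts with both.

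Joined pairs also stood among the pairs with the most reads, beside the exclusive pairs of PKM, SLC25A3 and ACTN4. ENO1, the enolase of glycolysis, had 52.9%, 51.7% and 52.1% in controls and 51.5%, 52.8% and 49.1% with SAM68, with reads that pass over an exon at 0.0638% of the MXE reads. RPL18, of the large ribosomal subunit, had PSI under 1% in every library, yet its exons were joined at 75.8% on the scale above. SNHG5, a host gene of small nucleolar RNAs, had PSI of 14.8% to 17.6% and exons joined at 87.9%. The groups overlapped in ENO1, RPL18 and SNHG5.

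The NBPF pairs, nearly identical in sequence, were shallow. In NBPF12 the pair of 103 nt, with 99.0% identity, had PSI of 72.2%, 83.3% and 100% in controls and 95.2%, 25% and 18.6% with SAM68 on 6 to 43 reads (difference -38.9 points, interval -63.8 to -14.0, adjusted p = 0.161). The libraries of the SAM68 group disagreed with each other. The difference was -63.4 points without the SAM68 library at place 1 of its list, where it passed the call (adjusted p = 0.00744), and -25.1 points without the one at place 3 (adjusted p = 0.916). In NBPF8 a pair of 215 nt differed by 37.0 points with an interval of -2.33 to 76.3, and ran from 14.2 to 54.4 points with 1 library left out. Reads of exons this alike can be placed on either copy, so these values are uncertain.

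Some uncalled pairs with at least 50 reads and no overlap between the groups differed by more than 10 points. ZNF512, a zinc finger gene, gave 46.6%, 48.1% and 52.9% against 62.9%, 67.6% and 62.0% (14.96 points, interval 2.07 to 27.9, adjusted p = 0.468). DGKZ, a diacylglycerol kinase, gave 44.2%, 50.8% and 51.9% against 37.5%, 28.9% and 38.5% (-14.0 points, interval -25.2 to -2.87, adjusted p = 0.372). RMC1, MIB2 and ATG10 differed by -14.2, -13.3 and 13.2 points, with adjusted p from 0.701 to 0.780; MIB2 was at -6.91 points without the SAM68 library at place 1 of its list. Pairs with at least 50 reads that differed by at least 10 points made up 18 of 317 (5.68%), against 4.84% of pairs of unequal length.

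The reads of both forms together measure how much of an event was sequenced, which PSI does not use; they follow the gene's RNA as well as the splicing around the pair. On the log2 of reads per 1000000 MXE reads plus 0.5, limma called 1 of the 479 events at an adjusted p under 0.05 and at least 2-fold, against 6 of 8791 (0.0683%). It was U2AF1L5, at 3.59 on the log2 scale (adjusted p = 0.0125), by the reads given above. Under the 2-fold limit, PKM rose by 0.37, UBE2B, a ubiquitin-conjugating enzyme, fell by 0.37, and the 2 events of RAB1A, a GTPase of early secretion, fell by 0.37 and 0.35 on the log2 scale.

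SAM68 is known to bind AU-rich letters such as TAAA, and the 100 nt of intron on each side of both exons were searched for TAAA on the transcript strand. At least 1 of the 4 windows held it in 74.8% of the pairs, against 77.3% of pairs of unequal length, and all 4 in 8.94% against 10.4%. In PKM 1 window held it, the one before the PKM1 exon, with 2 matches, and 39.8% of the pairs (43.8% of unequal length) had a match in that window. It is shown because it lies before the exon that fell, at chr15:72203189-72203288 on the minus strand, with the matches in capitals and the exon beginning after the last base. HNRNPM held the letters in all 4 windows, of which the 2 between its exons overlap and share a match, and U2AF1 in 2. Windows also overlap in other pairs whose exons lie close together. A match is a description of the letters and was not tested as a binding site.
PKM before exon A: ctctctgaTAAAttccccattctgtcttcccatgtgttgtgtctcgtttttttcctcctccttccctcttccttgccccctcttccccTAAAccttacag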

How the data were processed

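Spliced reads of RNA from 3 control and 3 SAM68 libraries were analysed. The authors sequenced paired ends on a NovaSeq, removed low-quality reads, checked the rest with fastp, aligned them with hisat2 to GRCh38 without alternate contigs and ran rMATS, whose version is not given in the sources used here; the submitters' processing notes list CASAVA 1.4, fastp 0.20.0 and HISAT2 2.1.0. The deposited tables of the authors hold, for each event, other values than single numbers: lists of 3 raw junction read counts per group and form, and the inclusion levels (fractions) made from them. All 52737 levels checked were recomputed to within 0.001. The tables' own p-values, FDR and level differences were not used. The lists are headed by number only, and the first was taken as control from the study's plot of PKM, so that the direction of PKM is not independent of this choice; KHDRBS1 is higher in the second list. Libraries are named by their place in a list.

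PSI was tested with a quasi-binomial model on the raw junction counts of both forms, with dispersions moderated by limma 3.58.1 (R 4.3.3). Effective lengths entered PSI, its difference and the interval, but not the test. The prior degrees of freedom came out infinite. Events needed a mean of 10 reads. Reads per event were tested with limma on the log2 of reads per 1000000 MXE reads plus 0.5, in place of the planned count model. The count model was not run because the columns hold lists of 3 counts and their unit was recorded as other than counts. The values in the lists are counts, and the test of PSI used them as such. Reads from exon A to exon B were estimated from exon-skipping rows; the 2 possible estimates agreed to within 10% or 5 reads in 289 of 352 events (Spearman 0.994 across events, which are not independent). Exon pairs were aligned globally (match 1, mismatch -1, gap opening -3, extension -1; Biopython 1.88). Annotation was GENCODE 44. In simulations the quasi-binomial test gave an adjusted p under 0.05 for 31.3%, 77.6% and 100% of events changed by 10, 20 and 40 points. Of unchanged events 0.14% passed. The limit of 10 points on a call was not applied. Changes were put only into events with at least 50 reads on average and a share of exon A near the middle of the scale. All events were drawn with 1 common dispersion, below the shared 2.53. These rates do not describe the calls made here, or events whose libraries disagree more than most. Each library held 16951876 to 19737729 exon-skipping junction reads. p-values rest on the spread between these libraries, which the quasi-binomial test pools into 1 dispersion for all events. With that shared dispersion, the spread between an event's own libraries did not enter its p-value. Limits from a count of 0 (3 reads) cover counting error only.

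The members and lists were chosen with earlier results of these data known. Named events were the called ones, textbook exon-swap genes, the 10 pairs with the most reads, the 10 with the highest identity and the 5 largest uncalled differences without overlap; SNF8, ACP1, RAB6A, CAMK2D, GALNT7, SCN9A and KIFC3 were chosen after their values were seen. Results of some named events are not reported here. Alternatives were other read minima, dispersions, tests, limits, leaving out each library and joint counts of pairs or copies.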

Additional observations from a re-analysis of the deposited data

How the results depend on the processing

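Over all tested events the count of calls, 21, became 3 with the larger of own and shared dispersion, 1 with each event's own dispersion, 1 with limma on logit-transformed PSI, 333 with a likelihood ratio test on pooled counts, which ignores the spread between libraries, 100 without a limit on the difference and 8 with a limit of 20 points; it ran from 8 to 33 with 1 library left out. Among the similar-length events the count of 3 became 1, 1, 1, 23 and 5 in the first 5 of these settings and ran from 2 to 5 with 1 library left out. The calls lost under the other models of the spread were those of HNRNPM and U2AF1. U2AF1 ran from -50.4 points without the third control library to 2.11, the opposite direction, without the third SAM68 library. The count of 1 event called for reads ran from 0 to 2 with 1 library left out; U2AF1L5 lost its call without the second control or the second SAM68 library. The log2 ratio of KHDRBS1, 1.98, stayed between 1.96 and 2.00. Of 745 alternative values of 47 named events, 723 kept their side of the threshold, 9 fell under it, 12 rose past it and 1 was counted as turned. Small differences of uncalled events also changed direction with 1 library left out. MAPK14 ran from -2.74 to 3.00 points and RAB6A from -4.55 to 5.07.

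No paired analysis was possible because the lists print no replicate numbers. The negative binomial and size-factor alternatives were not run, because the deposited columns hold lists of counts and their unit was recorded as other than counts. Summing U2AF1 with its copy, scaling by exon-skipping reads (a median shift of 0.0203 on the log2 scale) and a pseudocount of 2 reads per 1000000 were chosen after seeing the data. Depth limits the pairs under 50 reads, which hold 15 of the 18 differences of at least 20 points, and a pair whose exons are joined does not measure a swap.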
